A study of Mus musculus with 4 samples.

Results

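CT26 is a mouse colon carcinoma line that derives from the BALB/c strain. The tumours compared here were grown from Sun1_KO and from Sun1_WT CT26 cells injected under the skin of the right flank of syngeneic mice and taken at day 14. Nuclei of each genotype gave 1 multiome library, in which RNA and open chromatin were read from the same barcodes. The regions described are the Sun1_WT accessibility peaks on chromosomes 1 to 19 that no Sun1_KO peak overlapped by 1 bp or more, called WT-only peaks. They numbered 12746 of 123804 autosomal Sun1_WT peaks (10.3%). In the opposite direction, 19941 of 131004 autosomal Sun1_KO peaks (15.2%) overlapped no Sun1_WT peak. The labels do not give the number of animals, whether the lines were clones, or which part of Sun1 was deleted. With 1 library per genotype there is no replicate check, so no test was made and no p-value is given. Intervals are exact 95% intervals for counting error only.

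A peak in single-nucleus accessibility data marks a stretch where the transposase Tn5 could insert into DNA, usually at promoters, enhancers and insulators. SUN1 is an inner nuclear membrane protein that pairs with nesprins to form the LINC complex, the bridge between the nuclear lamina and the cytoskeleton. Sun1 itself, on chr5:139200564-139249839, had 1446 UMIs (64.7 CPM, counts scaled to the same total in every class) in Sun1_KO tumour-cell-like nuclei, against 3897 UMIs (109 CPM) in Sun1_WT ones, a log2 ratio of -0.75 (interval -0.84 to -0.66). Its transcripts were thus counted in both libraries. None of its 3 Sun1_WT peaks was WT-only, while 4 of its 7 Sun1_KO peaks overlapped no Sun1_WT peak.

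The libraries differed in size and make-up. After removal of nuclei with under 500 UMIs, under 300 genes or over 20% mitochondrial UMIs, 2172 Sun1_KO and 3345 Sun1_WT nuclei remained, and 174114114 and 222046666 counts lay in their autosomal peaks. Classes were named from RNA markers: 1331 Sun1_KO and 1926 Sun1_WT nuclei were tumour-cell-like, 201 and 182 macrophage-like, 122 and 106 NK-cell-like and 67 and 58 T-cell-like. A pair of clusters high in Dcn, left unnamed, held 56 Sun1_KO and 705 Sun1_WT nuclei. Clusters mixing tumour and leukocyte genes held 179 and 146, and a shallow myeloid cluster 145 and 178. A neutrophil-like cluster of 6 and 14 nuclei was too small to use. These were kept out of the named classes, and no doublets were removed. The tumour-cell-like class was also filled by different clusters. Clusters 10, 12 and 2 held 359, 275 and 269 of the Sun1_KO nuclei and 34, 36 and 51 of the Sun1_WT ones. Clusters 4, 19 and 5 held 30, 23 and 36 of the Sun1_KO nuclei and 688, 379 and 279 of the Sun1_WT ones. The median mitochondrial share in this class was 11.5% in Sun1_KO and 6.93% in Sun1_WT. Both libraries contained 12 identical barcodes. The part of these differences in the peak calls was not tested.

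A Sun1_KO count is deposited only over that library's own peaks, so a WT-only peak is a place with no Sun1_KO call, not a place measured to be closed. In summed counts, fewer nuclei of a kind and fewer insertions per nucleus cannot be told apart.

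Among the regions, 692 of the 16327 autosomal gene starts with a Sun1_WT peak within 1 kb had a WT-only one there, and 435 of them had within 1 kb no other Sun1_WT peak and no Sun1_KO peak. The promoters of 4 genes are shown to give the range seen at these starts, and were picked after their values were known. They are the 250 bases before the start, from the RefSeq promoter table of GRCm38.p6, the same assembly as mm10, each written 5′ to 3′ on the gene's strand. Capitals mark matches, on either strand and overlaps allowed, to TGANTCA (AP-1), GGAATG (TEAD), GAGGAAG (ETS), TGTGGT (RUNX), TGACGTCA (CRE), CACGTG (E-box), GGGCGG (SP/KLF) or CCAAT (NF-Y), N being any base.
Krt18, chr15:102027966-102028215, + strand: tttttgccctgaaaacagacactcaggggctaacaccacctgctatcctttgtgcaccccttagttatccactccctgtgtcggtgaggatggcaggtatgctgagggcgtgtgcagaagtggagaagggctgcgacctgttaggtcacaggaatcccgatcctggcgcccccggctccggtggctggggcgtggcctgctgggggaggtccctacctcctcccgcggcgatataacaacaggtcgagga
Tinagl1, chr4:130175123-130175372, - strand: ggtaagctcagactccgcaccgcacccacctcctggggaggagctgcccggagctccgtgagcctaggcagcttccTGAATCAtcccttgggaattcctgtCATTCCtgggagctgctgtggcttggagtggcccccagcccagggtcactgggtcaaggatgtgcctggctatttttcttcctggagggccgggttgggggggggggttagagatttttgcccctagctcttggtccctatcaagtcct
Hmga2, chr10:120476470-120476719, - strand: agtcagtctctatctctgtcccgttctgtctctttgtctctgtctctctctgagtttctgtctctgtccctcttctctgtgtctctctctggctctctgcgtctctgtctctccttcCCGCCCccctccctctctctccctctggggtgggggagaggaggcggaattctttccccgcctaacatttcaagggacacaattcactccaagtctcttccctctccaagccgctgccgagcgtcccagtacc
Dennd5b, chr6:149101681-149101930, - strand: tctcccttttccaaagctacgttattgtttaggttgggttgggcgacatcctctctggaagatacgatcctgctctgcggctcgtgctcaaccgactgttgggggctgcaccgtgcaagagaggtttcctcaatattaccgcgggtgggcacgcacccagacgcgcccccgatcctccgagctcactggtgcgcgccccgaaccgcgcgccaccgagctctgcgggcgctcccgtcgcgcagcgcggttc

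Krt18 encodes keratin 18, an intermediate filament protein of simple epithelia, and its upstream stretch is 60.4% G or C with none of the motifs. Its start peak (chr15:102027788-102028598) held 801 counts in 385 nuclei, at 3.85 CPM in tumour-cell-like nuclei and 2.63 CPM in host nuclei, here the macrophage-, NK-cell- and T-cell-like classes together. Tinagl1, a secreted matrix protein, carries an AP-1 and a TEAD match in the stretch shown. The stretch before another listed start of Tinagl1, under the same peak, carries SP/KLF matches and neither of these. The Tinagl1 start peak (chr4:130174705-130175384) held 5378 counts in 1615 nuclei, at 27.2 CPM in tumour-cell-like and 2.04 CPM in host nuclei. Hmga2, an architectural chromatin protein of embryonic and many tumour cells, carries an SP/KLF match. Its peak (chr10:120476500-120477157) held 6879 counts in 1811 nuclei, at 35.7 CPM in tumour-cell-like and 4.18 CPM in host nuclei. Dennd5b, a DENN-domain protein of membrane traffic, shows the opposite distribution: its start peak (chr6:149101193-149101966) held 151 counts, at 0.313 CPM in tumour-cell-like and 5.16 CPM in host nuclei.

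Counts of matches over all starts describe the promoters further. At the 435 starts called in Sun1_WT alone the median content of G and C was 51.6%, against 58.4% at all starts with a Sun1_WT peak and 52.4% at all 31396 starts in the table. The median number of CpG pairs was 4, against 14 and 6. A GGGCGG match was present at 26.2%, against 50.3% at starts with a Sun1_WT peak and 33.0% of all, and a CCAAT match at 27.1%, against 34.1% and 33.7%. TEAD matches were present at 17.0%, against 11.2% and 12.5%, RUNX matches at 17.0%, against 12.2% and 14.0%, and ETS matches at 11.7%, against 11.1% and 10.7%. AP-1 matches were present at 6.90%, against 5.75% and 6.77%. E-box matches were present at 4.14%, against 7.65% and 6.02%, and CRE matches at 0.23%, against 2.38% and 1.58%. Starts called in Sun1_WT alone were thus nearer to the table as a whole than to accessible starts in G and C content, CpG and SP/KLF matches. A match is a run of letters, not a measured binding site.

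The WT-only peaks were weak peaks for the most part. The median peak held 204 counts (quartiles 155 and 294, range 17 to 44850) in 106 of 3345 nuclei (3.17%), whereas shared Sun1_WT peaks had a median of 714 counts in 331 nuclei (9.90%). Median width was 843 bp (quartiles 765 and 886, range 154 to 1152), against 881 bp, and 512 peaks (4.02%) were under 500 bp wide, against 0.922% of shared peaks. Together they covered 10246.6 kb and held 1.77% of the autosomal counts. In 10 groups of equal number ordered by counts, 43.3% of the weakest Sun1_WT peaks (17 to 187 counts) were WT-only, then 24.7%, 14.2%, 8.74%, 4.94%, 3.11%, 1.85%, 1.20%, 0.719% and, in the strongest group, 0.202%. Between chromosomes the share ran from 9.0% on chromosome 10 to 11.4% on chromosome 1. Counts and the missing overlap both come from the peak calls that define these peaks, so these values are a description.

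**Figure D1:**
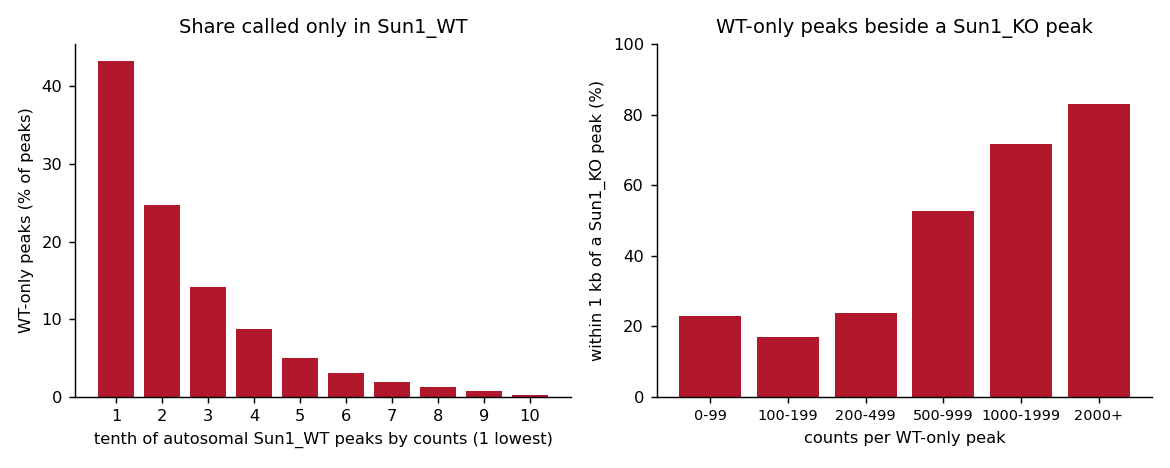
Share of autosomal Sun1_WT peaks that are WT-only (vertical axis, percent) in 10 groups of peaks ordered by counts (horizontal axis), and, in the second panel, share of WT-only peaks within 1 kb of a Sun1_KO peak by counts per peak. The first share is 43.3% in the weakest group and 0.202% in the strongest, and the second is 83.0% in peaks of at least 2000 counts.

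Most WT-only peaks lay within 10 kb of a Sun1_KO peak. The median distance to the nearest Sun1_KO peak was 3203.5 bp, with quartiles of 1037 and 7648 bp. In the opposite direction, Sun1_KO-only peaks had a median distance of 3763 bp to a Sun1_WT peak. For 87.9% of the WT-only peaks the nearest Sun1_KO peak was itself overlapped by another Sun1_WT peak. This is near the 84.8% of all autosomal Sun1_KO peaks that overlapped a Sun1_WT peak. A Sun1_KO peak lay within 1 kb of 3105 WT-only peaks (24.4%) and within 10 kb of 80.8%, and 182 (1.43%) were more than 100 kb from any. The strong members were the closest: 83.0% of the 165 with at least 2000 counts and 71.6% of the 257 with 1000 to below 2000 had a Sun1_KO peak within 1 kb, against 16.8% of the 5218 with 100 to below 200. At the edge of the rule, 4 members touched a Sun1_KO peak with a gap of 0 bp, with the width taken as end minus start. If the listed ends belong to the peaks, these 4 would overlap by 1 bp and fall outside the rule. They are chr12:56287797-56288306 with 86 counts, chr4:82062074-82062603 with 285, chr8:106943894-106944555 with 344, and chr9:21768427-21768831, whose 2806 counts lay beside a Sun1_KO peak of 2687. The fifth, chr16:91870184-91870565, had 331 counts and a gap of 2 bp. Just outside were chr2:168979561-168980216 (103 counts) and chr4:140249044-140249657 (212), each sharing 1 bp with a Sun1_KO peak, chr8:20494964-20495363 (162) sharing 3 bp, and chr17:63149284-63149726 and chr3:37758654-37759271 sharing 4 bp. In all, 17 shared peaks overlapped a Sun1_KO peak by 10 bp or less.

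Most of the 10 members with most counts lay within 1 kb of a gene start, and 7 of the 10 had gaps of 18 to 542 bp to a Sun1_KO peak. The strongest, chr17:39845596-39846485, held 44850 counts in 2693 nuclei (80.5%) and lies at Rn18s-rs5, an 18S ribosomal RNA sequence, where reads from the ribosomal DNA repeats cannot be placed with certainty. Its gap to the nearest Sun1_KO peak was 1496 bp. Its level was 193 CPM in tumour-cell-like, 227 in macrophage-like, 600 in NK-cell-like and 1188 in T-cell-like nuclei. At the start of Sp3, a GC-box transcription factor, chr2:72978949-72979662 held 11462 counts in 2423 nuclei, 542 bp from a Sun1_KO peak of 8769 counts. At Nipbl, the cohesin loader, chr15:8444221-8445023 held 8758 counts 113 bp from one. A peak 727 bp from the start of the glycolytic gene Gapdh, chr6:125166500-125167174, held 8125 counts 429 bp from one of 9252 counts. The next were chr2:32713249-32713793 (8019 counts, gap 65 bp), the start of the kinase gene Akt1 (chr12:112673879-112674786, 7741 counts, gap 289 bp), a peak at chr11:69040955 (7722 counts, gap 99 bp) and one at Hook2, a microtubule linker (7647 counts, gap 18 bp). The peak at chr11:69040955 lies over an annotated transfer RNA gene, n-TDgtc9, so its reads may be misplaced. Wider gaps were also found at Pogz, a zinc finger chromatin protein (chr3:94837781-94838234, 7380 counts, gap 3845 bp), and Hmga2 (gap 854 bp, beside a Sun1_KO peak of 2178 counts). Of these 10, the Hmga2 peak had the highest ratio of tumour-cell-like to host level.

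Next, the nuclei that carried the WT-only peaks were read from the RNA of the same barcodes. WT-only peaks held 1.71% of the peak counts of tumour-cell-like nuclei, 1.87% of macrophage-like, 2.48% of NK-cell-like, 1.68% of T-cell-like and 1.91% of Dcn-high nuclei, against 1.77% over all kept nuclei. In the mixed clusters the share was 1.82% and in the shallow myeloid cluster 1.70%. The median nucleus had 1.70% in the tumour-cell-like, 1.87% in the macrophage-like, 1.99% in the NK-cell-like and 1.64% in the T-cell-like class, and 1.53% in the 14 neutrophil-like nuclei. So the summed NK-cell-like share lay above its median, and the 106 nuclei had an upper quartile of 2.65%. Sun1_KO-only peaks were less even over the Sun1_KO nuclei, with 1.99% of counts in tumour-cell-like, 5.77% in macrophage-like, 5.53% in NK-cell-like and 5.54% in T-cell-like nuclei.

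**Figure D2:**
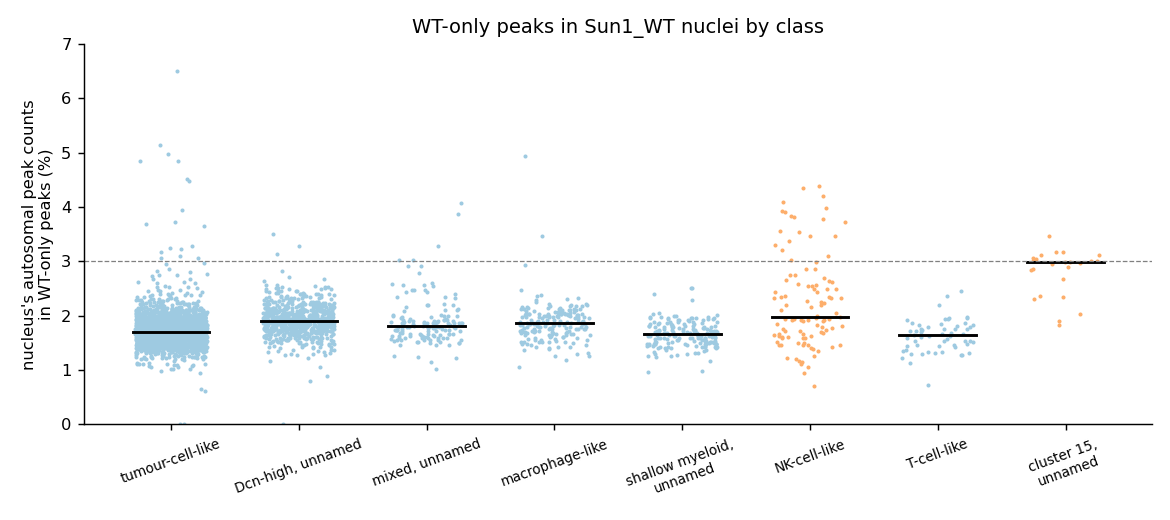
Percent of each Sun1_WT nucleus's autosomal peak counts that lie in WT-only peaks (vertical axis), by class of nuclei (horizontal axis); each point is a nucleus, black lines are medians, the dashed line is at 3%, and NK-cell-like nuclei and cluster 15 are in orange. Medians of the tumour-cell-, macrophage-, NK-cell- and T-cell-like classes lie between 1.64% and 1.99%, and that of cluster 15 is 2.99%. Above 3% are 20 of 106 NK-cell-like nuclei, 18 of 1926 tumour-cell-like nuclei and 10 of the 24 in cluster 15.

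Of 3345 nuclei, 58 had more than 3% of their counts in WT-only peaks. They included 20 of the 106 NK-cell-like nuclei, 18 of the 1926 tumour-cell-like ones and 10 of the 24 in the unnamed cluster 15. The line at 3% was set after seeing the data and falls in a continuous range, so the nuclei above it are a range and not a type. The genes that follow were also picked with their values known. The 20 NK-cell-like nuclei had a median of 2970.5 UMIs and 46730.5 peak counts, and the other 86 a median of 2883 UMIs and 25983.5 peak counts. Gzma, granzyme A, had 714 UMIs in the 20 nuclei and 1373 in the 86, a ratio of levels of 1.98 (1.81 to 2.17), and Gzmc had 365 and 872, a ratio of 1.6 (1.41 to 1.81), with 297 of the 872 in 1 nucleus. Gzmb, granzyme B, had 169 and 817, a ratio of 0.79 (0.66 to 0.93), with 131 of the 817 in 1 nucleus, and the pore protein gene Prf1 127 and 485, a ratio of 1.00 (0.82 to 1.22). Itga1, the integrin chain of tissue-resident NK cells and innate lymphoid cells, had 70 and 131 UMIs, a ratio of 2.04 (1.5 to 2.75). Xcl1, a chemokine that attracts dendritic cells, had 1 and 135 UMIs, the transcription factor gene Ikzf2 5 and 179, and Ccl5, a chemokine of cytotoxic lymphocytes, 3 and 83. Ncr1, the NK receptor NKp46, had 65 and 234, a ratio of 1.06 (0.79 to 1.40). Levels of Ncr1 and Prf1 were thus near each other in both sets, while those of Xcl1, Ikzf2 and Ccl5 were lower in the nuclei above 3%. Gzmf had 169 UMIs in 4 of the 20 nuclei, 63 of them in 1 nucleus, and 69 UMIs in 3 of the 86.

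Of the 18 tumour-cell-like nuclei above 3%, 13 belonged to cluster 13, which had 192 Sun1_WT nuclei. The 13 had a median of 26301 UMIs and 9825 peak counts, against 9377 UMIs and 29315 peak counts in the other 179, so their accessibility counts were few for their RNA. Of the cell-cycle genes looked at, Cenpf, a kinetochore protein, had a ratio of levels of 3.77 (3.37 to 4.20), Top2a, which untangles DNA, 3.65 (3.21 to 4.15) and Ccnb2, a mitotic cyclin, 3.28 (2.52 to 4.24). Hmgb2 (2.84), Nek2 (2.42), Cks2 (2.09) and Pttg1 (2.08) were also higher in the 13 nuclei, with intervals clear of equal levels. Ratios were smaller for Cdc20, an activator of mitotic exit, at 1.29 (1.04 to 1.58), and for the mitotic cyclin Ccnb1, at 1.20 (0.83 to 1.71). By the ratio itself, all of these cell-cycle genes were thus higher in the 13 nuclei, though to different degrees. The Ccnb1 interval held equal levels. Hmga2 had a ratio of 0.89 (0.79 to 0.99). These genes, too, were chosen after seeing the values, and the part of the low counts in the share was not tested.

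Cluster 15 had 34 Sun1_KO and 24 Sun1_WT nuclei, was led by Rarres2, Tnc, Ebf1, Col5a2 and Igfbp3, and met the terms of no class. Its summed share was 2.58% and its median nucleus had 2.99%, with a highest value of 3.46%. By the interval bound, 1173 of 12679 WT-only peaks (9.25%) were at least 2-fold higher there than in tumour-cell-like nuclei, against 8871 of 110653 shared peaks (8.02%). An example is the peak at the start of Fzd1, a Wnt receptor (chr5:4757641-4758338), with 28.2 CPM in cluster 15 (31 counts in 12 nuclei) and 0.37 CPM in tumour-cell-like nuclei. Fzd1 was picked after its value was seen.

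Each peak was then placed by its leaning, the ratio of its level in tumour-cell-like to that in host nuclei of Sun1_WT, with 0.5 added to each count and at least 20 counts in the peak. Of the 12734 WT-only peaks compared, 4937 (38.8%, interval 37.9 to 39.6%) leaned at least 2-fold to tumour-cell-like nuclei, where the figure was 42.0% over all autosomal Sun1_WT peaks and 42.4% over the shared ones. Host-leaning were 2633 (20.7%), where the figure was 21.2% over all peaks and 21.3% over shared ones. The median log2 leaning was 0.48 for WT-only and 0.52 for shared peaks. With all levels of counts together, the host-leaning share was thus near that of all peaks and the tumour-leaning share somewhat lower. Dcn-high nuclei do not enter this leaning.

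At equal counts the distributions parted. Among peaks of 100 to below 200 counts, 36.4% of WT-only and 29.8% of shared peaks leaned to tumour-cell-like nuclei, and at 200 to below 500 counts 39.7% and 35.1%. At 500 to below 1000 counts the shares were 54.9% and 46.4%, and at 1000 to below 5000 counts 61.5% and 57.4%. Host-leaning peaks made up 23.6% of WT-only and 42.7% of shared peaks at 100 to below 200 counts, and 18.6% and 36.5% at 200 to below 500. They made up 11.2% and 20.8% at 500 to below 1000, and 4.53% and 7.59% at 1000 to below 5000. By the ratio itself, at each level of counts fewer WT-only than shared peaks thus leaned to host nuclei and more to tumour-cell-like ones. At 1000 to below 5000 counts, though, the tumour-leaning interval of WT-only peaks (56.5 to 66.3%) held the shared value. The Sun1_KO library, from which the absence of a call was read, held more macrophage-, NK-cell- and T-cell-like nuclei and fewer tumour-cell-like ones, and the part of this in the shares was not tested. With the stricter demand that the interval bound reach 2-fold, 12.5% of WT-only peaks leaned to tumour-cell-like nuclei, against 27.9% of all peaks, and 13.4% to host nuclei, against 17.6% of all. This demand favours peaks with many counts, of which the WT-only peaks have few. Sun1_KO-only peaks leaned to tumour-cell-like nuclei of their own library in 32.9% and to host nuclei in 42.5%, where all autosomal Sun1_KO peaks gave 44.7% and 22.9%.

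**Figure D3:**
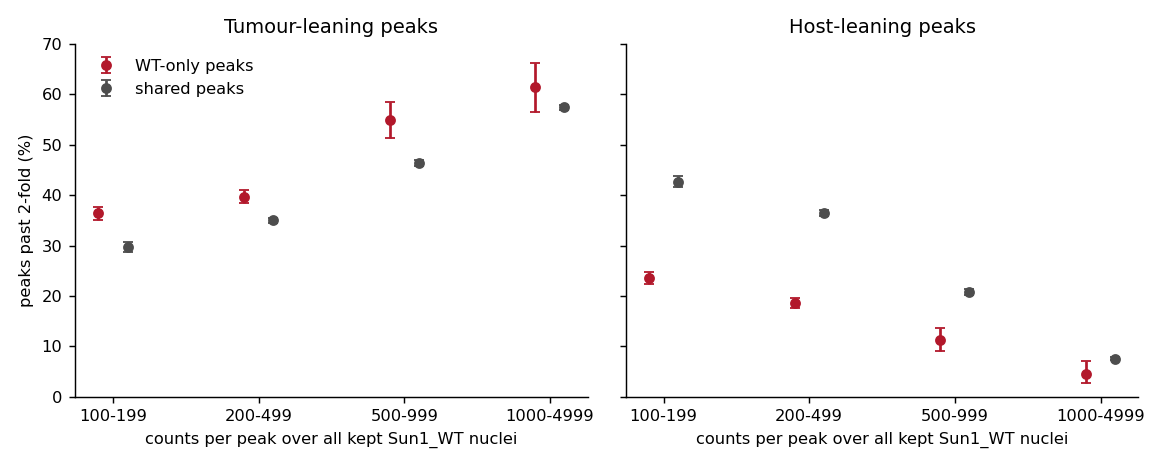
Percent of WT-only and shared Sun1_WT peaks that lean at least 2-fold to tumour-cell-like or to host nuclei (vertical axis), by counts per peak (horizontal axis); bars are exact 95% intervals for counting error. The host-leaning share of WT-only peaks is 23.6% at 100 to below 200 counts, against 42.7% of shared peaks.

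The host-leaning WT-only peaks were highest in macrophage-like nuclei in 1113 cases (42.3%), in NK-cell-like nuclei in 1099 (41.7%) and in T-cell-like nuclei in 421 (16.0%). For shared host-leaning peaks the shares were 52.3%, 27.0% and 20.7%. Relative to shared peaks, the WT-only ones were thus more often highest in NK-cell-like nuclei, the class with 20 nuclei above 3%. This held at 100 to below 200 counts (42.2% against 32.0%) and at 200 to below 500 (39.3% against 26.5%). At 500 to below 1000 counts the shares were 24.1%, of 87 WT-only peaks, and 25.6%. From 1000 to below 5000 counts they were 27.8%, of 18 WT-only peaks, and 24.6%. By the interval bound, 838 WT-only peaks leaned to host nuclei and were highest in macrophage-like nuclei, 623 in NK-cell-like and 243 in T-cell-like nuclei. Genes that held most of them, chosen by that number after the data were seen, were Lpp with 6, Rbm47 with 3 and the zinc finger repressor Bcl11a with 3 for macrophage-like nuclei. Igh, an antigen receptor locus, had 3 for macrophage-like and 6 for NK-cell-like nuclei. For NK-cell-like nuclei the next was the antigen receptor locus Tcra with 5, within which Tcrd lies, and for T-cell-like nuclei the RNA-binding protein gene Celf2 with 3 and Irf4, a transcription factor of activated lymphocytes, with 2. Igh spans 2751 kb and Tcra 1796 kb, so both offer much room for peaks.

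By the rule for named peaks, the 5 leaning most to tumour-cell-like nuclei were led by chr14:46634666-46635029, with 2086 counts, of which 1583 lay in tumour-cell-like and 0 in host nuclei. The next were at chr15:77365370 (4555 counts, 20.5 CPM in tumour-cell-like and 0.531 CPM in macrophage-like nuclei), chr17:63661001 (4014 counts, 19.8 and 0.354 CPM), chr8:24420388 (4313 counts, 22.7 CPM and none in macrophage-like nuclei) and chr15:58481498 (3156 counts, 15.2 and 0.354 CPM). The 5 leaning most to host nuclei were led by chr13:23435915-23436754 with 207 counts, 0 of them in tumour-cell-like nuclei and 76, 42 and 14 in macrophage-, NK-cell- and T-cell-like ones. Its neighbour chr13:23438607 had 114 counts. Both lie over annotated transfer RNA genes, n-TKctt11 and n-TAcgc10, which have near-identical copies elsewhere, so their reads may be misplaced. At Btg3, an antiproliferative gene, chr16:78375207-78376070 had 39.5 CPM in NK-cell-like, 35.3 in T-cell-like, 9.03 in macrophage-like and 0.107 in tumour-cell-like nuclei. At Cyfip2, an actin regulator of lymphocytes and neurons, chr11:46310017 had 20.5 CPM in macrophage-like, 17.6 in T-cell-like, 13.1 in NK-cell-like and 0.107 in tumour-cell-like nuclei. At Fli1, an ETS factor of blood cells, chr9:32540913 had 32.1 CPM in NK-cell-like, 27.5 in T-cell-like, 18.6 in macrophage-like and 0.166 in tumour-cell-like nuclei. These peaks are the extremes of 12734 and stand for no group.

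WT-only peaks were rare at gene starts. Within 1 kb of a start lay 578 (4.53%, 4.18 to 4.91%), whereas 11.8% of all autosomal Sun1_WT peaks and 12.6% of shared ones did. Another 57.0% lay elsewhere in a gene, against 52.7% of shared peaks, and 38.5% outside genes, against 34.7%. The median distance to a start was 26.0 kb, against 19.2 kb. At 100 to below 200 counts 3.43% of WT-only and 4.63% of shared peaks were at a start, at 200 to below 500 counts 3.75% and 4.90%, at 500 to below 1000 counts 6.96% and 5.56%, and from 1000 counts 23.9% and 23.4%. From 100 to below 500 counts the WT-only share was thus the lower one, and from 1000 counts the shares were alike.

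Runs of WT-only peaks, in which no shared Sun1_WT peak came between, were mostly short. Of 10855 runs, 9353 were 1 peak, 1221 had 2, 220 had 3, 42 had 4 and 19 had at least 5. The 19 held 123 peaks (0.97%), spanned 22.9 to 711 kb, and 18 of them contained no Sun1_KO peak. Of the Sun1_KO-only peaks' 15852 runs, 68 had at least 5. In 14 of the 19 runs the summed level was at least 2-fold higher in tumour-cell-like than in host nuclei by the interval bound, and in 1 it was at least 2-fold lower. No share over runs of other peaks is given here. The shares for single peaks cannot stand in for it, because a sum over several peaks has a narrower interval. Dcn-high nuclei do not enter this ratio. Their level was above that of tumour-cell-like nuclei in some runs, such as run 12 (13.2 against 4.79 CPM), and below it in others, such as run 2 (6.66 against 13.4 CPM). A high ratio thus does not mark a run as particular to tumour-cell-like nuclei.

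The 5 runs with most peaks all leaned to tumour-cell-like nuclei. Run 1, chr11:67390631-67432541, had 10 peaks in 41.9 kb. It lies between Myh13, a muscle myosin gene 19.0 kb away with 0 UMIs in Sun1_KO and 1 in Sun1_WT, and Gas7, 20.7 kb away, which encodes a growth arrest protein of the cytoskeleton. Its level was 27.9 CPM in tumour-cell-like, 6.55 in macrophage-like, 11.8 in NK-cell-like, 4.23 in T-cell-like and 24.7 in Dcn-high nuclei, a tumour-to-host ratio of 3.53 (2.84 to 4.46). Run 2, chr5:126439392-126523693, also had 10 peaks, with 13.4 CPM in tumour-cell-like, 0.177 in macrophage-like and 2.18 in NK-cell-like nuclei, a ratio of 17.2 with a lower bound of 8.73. Run 3, chr6:92446645-92632485, had 10 peaks in Prickle2, a planar polarity gene, within 345 kb free of Sun1_KO peaks, and a ratio of 8.21 (4.57 to 16.5). Of all clusters it was highest in cluster 15, at 61.9 CPM (68 counts). Run 4, chr2:161593547-161690913, had 9 peaks in Ptprt, a receptor tyrosine phosphatase, and a ratio of 12.3 (6.86 to 24.7). Run 5, chr10:37413134-38124180, had 9 peaks over 711 kb, within 908 kb free of Sun1_KO peaks, and a ratio of 2.99 (2.06 to 4.52). It, too, was highest in cluster 15, with 33 counts in its 24 Sun1_WT nuclei.

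Shorter runs were named after their values were seen. Run 6, chr2:149834104-149932766, had 7 peaks in Syndig1, a synapse protein gene, and was highest in cluster 15, at 31.8 CPM (35 counts), against 10.7 CPM in tumour-cell-like nuclei. All 7 Sun1_WT peaks of Syndig1 were WT-only and it had no Sun1_KO peak, while its RNA was near 0 in both, with 5 UMIs in Sun1_KO and 6 in Sun1_WT tumour-cell-like nuclei. Run 7, chr11:12403087-12532985, had 6 peaks in Cobl, an actin nucleator, or beyond its end, and a ratio of 84.5 (23.4 to 698). Run 9, chr1:107413767-107436685, had 6 peaks in and beside Serpinb7, a protease inhibitor, and a ratio of 4.53 (2.52 to 9.12). Run 18 was the exception, with a ratio of 0.35 (0.28 to 0.45) and 16.5 CPM in NK-cell-like nuclei. Of 26 genes in or beside the 19 runs, 11 had enough RNA to compare (at least 100 UMIs), with a median log2 ratio of Sun1_KO over Sun1_WT of -0.34. Of these, Gas7, Zfp978 and Zfp988 (-1.09) were at least 2-fold lower in Sun1_KO and 0 were at least 2-fold higher, where 2.13% of all genes compared were lower and 3.08% higher. Of the 4 compared genes that a run overlaps, 1 was lower. Both zinc finger genes belong to a family of near-identical copies, so their reads may be shared.

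**Figure D4:**
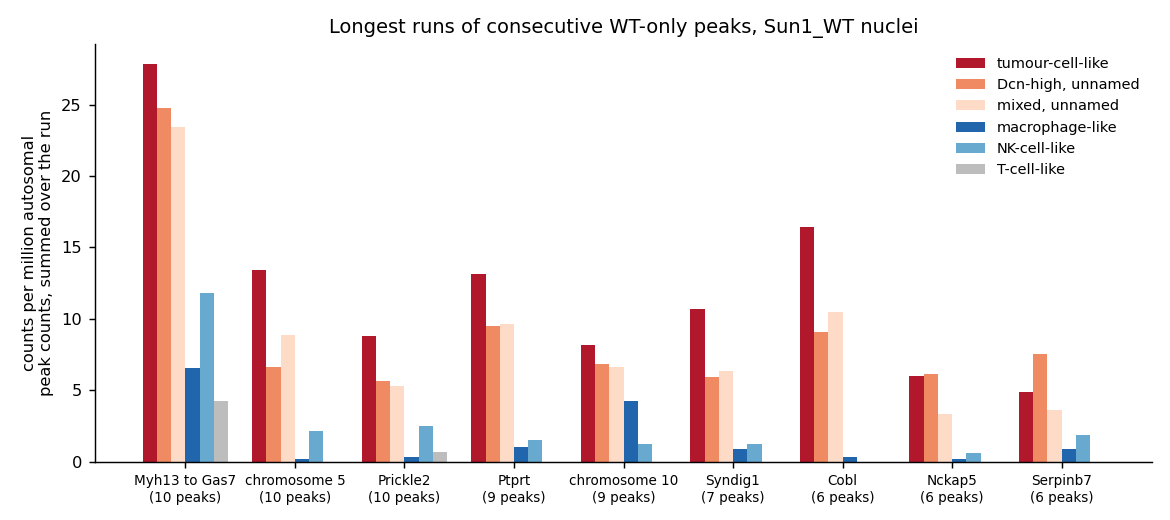
Summed level (CPM, vertical axis) of the 9 runs with most WT-only peaks (horizontal axis), with a bar for each class of Sun1_WT nuclei. Run 1 between Myh13 and Gas7 is at 27.9 CPM in tumour-cell-like and 6.55 CPM in macrophage-like nuclei.

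The RNA of genes holding WT-only peaks, in the gene or within 1 kb, was compared in tumour-cell-like nuclei, a measure the rule did not use. Of 25185 placed genes, 18.9% held at least 1. Among 11514 genes with at least 100 UMIs, 2.13% fell short of Sun1_WT in Sun1_KO by 2-fold or more and 3.08% exceeded it by as much, with a median log2 ratio of 0.16. Of the 3060 with a WT-only peak, 54 (1.76%, 1.33 to 2.30%) were lower by that measure and 107 (3.50%) higher, and their median was 0.26. Genes holding a WT-only peak were thus not lower in Sun1_KO more often than all genes. The split turns with the scaling: with TMM or median-ratio factors, 3.24% of these genes were lower and 1.67% higher, against 4.64% and 1.45% of all genes with TMM. The median of all genes in the tables was 0.15 with scaling by totals, -0.08 with TMM and -0.07 with median-ratio factors. Genes with WT-only peaks were long, with a median of 67.8 kb against 17.3 kb for genes with none.

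The share of lower genes rose with the number of WT-only peaks held. With 1 such peak 1.46% of 1983 genes were at least 2-fold lower in Sun1_KO, with 2 peaks 1.69% of 593, with 3 or 4 peaks 1.97% of 356, and with 5 or more 6.25% of 128 (8 genes, 2.74 to 11.9%). In that last group 6 genes (4.69%) were at least 2-fold higher. Over all genes compared, 2.13% were lower and 3.08% higher. The median length of the 128 was 397 kb, and no share of genes of like length is given, so the part of length was not tested. The 8 lower genes, named after their values were seen, were Zfp978, Gas7, Tnr, Fhod3 (-1.64), Scara5 (-1.55), Ank3 (-1.45), Pard3b (-1.41) and 8030451A03Rik (-1.38). Fhod3 is an actin-organising formin, Scara5 a scavenger receptor for ferritin, Ank3 the membrane adaptor ankyrin-G and Pard3b a cell polarity protein. The 6 higher genes were 2610307P16Rik (1.49), Cmss1 (1.15), Arhgap26 (1.06), Sugct (1.05), Macrod2 (1.01) and Akap6 (1.01). With the genes in 4 groups of equal number by length, 1.52% with and 0.81% without a WT-only peak were lower among the longest, and 1.67% and 1.11% in the next group. In the shorter groups the values were 2.24% and 2.26%, then 3.64% and 3.76%. Genes with a tumour-leaning WT-only peak were lower in 2.76%, and those with a host-leaning one and no tumour-leaning one in 1.35%.

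The lowest genes holding WT-only peaks were genes with little or no RNA in Sun1_KO tumour-cell-like nuclei. Krt18 (chr15:102028216-102032026) had 1 UMI in Sun1_KO and 267 in Sun1_WT, a log2 ratio of -6.80 (-12.69 to -4.89). Both of its Sun1_WT peaks were WT-only and it had 0 Sun1_KO peaks, so its RNA and its peaks were present in the same library. Zfp978 (chr4:147124882-147392027), a zinc finger gene of the repeated family above, had 17 and 562 UMIs (-4.33) and 9 of 14 peaks WT-only. Agxt2 (chr15:10358516-10410158), a mitochondrial aminotransferase, had 17 and 353 UMIs (-3.66, -4.49 to -3.00) and 3 of 7 peaks WT-only. Tnr (chr1:159523729-159931729), the matrix glycoprotein tenascin-R, had 36 and 420 UMIs (-2.85, -3.40 to -2.37) and 12 of 41 peaks WT-only. Gas7 (chr11:67453257-67688992) had 27 and 322 UMIs (-2.87, -3.52 to -2.33) and 18 of 49 peaks WT-only, besides the nearby run. The other lowest genes held fewer: Ceacam1, a cell adhesion receptor, had 78 and 814 UMIs (-2.70) and 1 of 2 peaks. Akr1c18, a steroid dehydrogenase, had 25 and 288 (-2.82) and 1 of 2. P2rx3, an ATP-gated channel, had 22 and 246 (-2.78) and 1 of 6. Nsd1, a histone methyltransferase, had 568 and 4217 UMIs (-2.21) and 2 of 9 peaks WT-only.

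The highest genes held WT-only peaks too, though few each. Dio2, which activates thyroid hormone, had 1562 UMIs in Sun1_KO and 280 in Sun1_WT (3.16) and 1 of 4 Sun1_WT peaks WT-only. Arhgap15, a Rac regulator of blood cells, had 867 and 171 UMIs (3.02) and 1 of 18, whereas 18 of its 35 Sun1_KO peaks were Sun1_KO-only. P2ry14, a receptor for UDP sugars, had 199 and 41 (2.94), Medag, a gene of fat cell formation, 386 and 91 (2.76), and Csmd3 1046 and 332 (2.33). Kcnab2, a potassium channel subunit (2.54), Cpne5 (2.23), Gpc5, a glypican (2.07), Rassf5, a Ras effector of lymphocytes (2.05), and Fstl1, a secreted glycoprotein (1.97), had 1 or 2 WT-only peaks each. Leukocyte markers were also higher in the Sun1_KO tumour-cell-like nuclei: the 14 macrophage markers summed to 147 CPM in Sun1_KO and 101 CPM in Sun1_WT, the 12 NK-cell markers to 21.3 and 11.6 CPM, and the 14 T-cell markers to 16.8 and 11.0 CPM. The T-cell and macrophage markers were all detected in both, and 10 of the 12 NK-cell markers. Their part in the result was not tested.

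A large number of WT-only peaks did not by itself go with low RNA. Of the 10 genes with most, Gas7 (18) and Tnr (12) were among the lowest. Syn3, a synaptic vesicle gene, had 17 of 76 and a log2 ratio of -0.17, and Ptprt had 16 of 36, 779 UMIs in Sun1_KO, 1575 in Sun1_WT and a ratio of -0.34. Cdk14, a cyclin-dependent kinase of Wnt signalling, had 16 of 52 and a ratio of 0.48. Rarb, a retinoic acid receptor, had 15 of 67 and 0.98, so its RNA was higher in Sun1_KO. Elmo1, an engulfment adaptor, had 13 of 56 and -0.75, Lpp, a focal adhesion protein, 13 of 85 and 0.40, and Mecom, a zinc finger transcription factor, 12 of 49 and -0.04. Shank2, a synaptic scaffold, had 12 of 36 peaks WT-only and 15 and 40 UMIs, too few to compare. The ratios of these genes thus ran from -2.87 to 0.98.

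**Figure D5:**
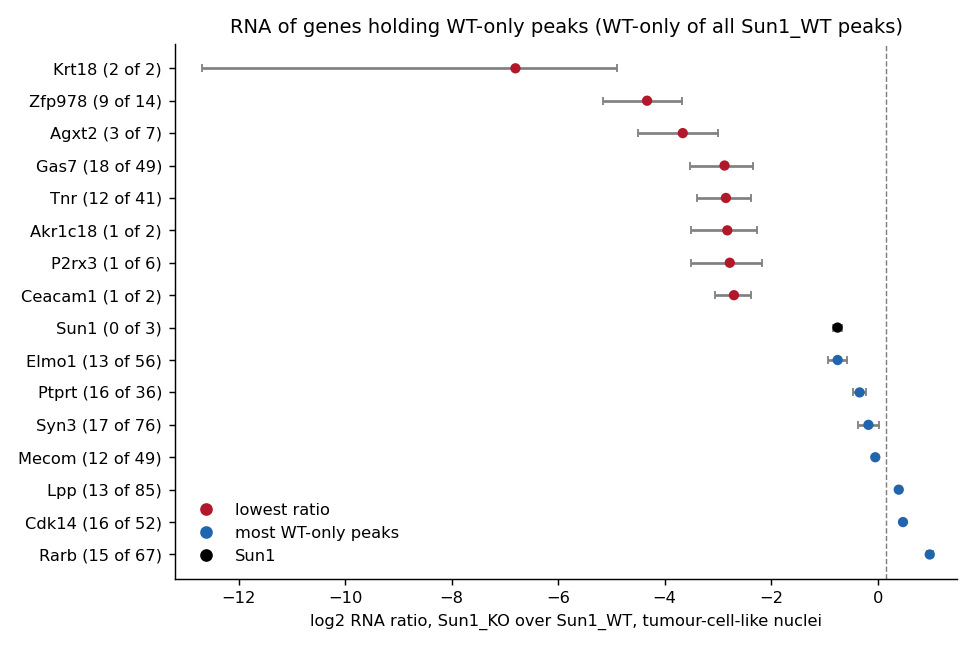
Log2 ratio of RNA in tumour-cell-like nuclei, Sun1_KO over Sun1_WT (horizontal axis), for 8 of the lowest genes that hold a WT-only peak (red), the other genes with most WT-only peaks and enough RNA (blue) and Sun1 (black). Bars are 95% counting intervals and the dashed line is the median of all genes; Krt18 is lowest, at -6.80, and Rarb highest, at 0.98.

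Lists of genes that fit the tissue, drawn up with earlier results of these data known, held WT-only peaks unevenly. Matrix genes did in 11 of 19 placed (17 peaks, median length 77.1 kb) and YAP and TEAD targets in 9 of 18 (17 peaks), against 18.9% of all placed genes. In the matrix list, 1 of 10 compared genes was at least 2-fold lower and 1 higher: Tnc, the matrix protein tenascin-C, had 225 UMIs in Sun1_KO and 976 in Sun1_WT (-1.44), and the collagen gene Col5a2 had 61 and 47 (1.05). Dcn, the proteoglycan decorin, had 2 of 7 peaks WT-only and 2528 and 6052 UMIs (-0.58), and Col5a1 a ratio of 0.53. Of 9 compared YAP and TEAD targets, 0 passed 2-fold, with 5 of 25 peaks WT-only and a ratio of 0.24 for the transcription factor Tead1 and 3 of 14 and 0.61 for Crim1. Integrin and focal adhesion genes held WT-only peaks in 7 of 15. Of these, Itga2, a collagen receptor chain, was lower (22 and 79 UMIs, -1.14), Ptk2, focal adhesion kinase, had 4 of 18 peaks and 0.45, and Itgb1, the common beta chain, 2 of 9 and -0.38.

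Hypoxia and glycolysis genes held WT-only peaks in 6 of 19, among them Ldha, lactate dehydrogenase A, with 10113 UMIs in Sun1_KO and 24910 in Sun1_WT (-0.62), and Aldoa (-0.36). Among immune lists, 1 of 12 class I presentation genes (the peptide trimmer Erap1, 3 of 5 peaks, 0.19) and 1 of 20 chemokines and cytokines (Lif, 0.89) held one, and 2 of 7 class II genes and 3 of 17 interferon response genes did. A Sun1_KO-only peak was held by 10 of the chemokine and cytokine genes and by 6 of the interferon response genes. Ciita, the class II transactivator, had 3 of 15 peaks WT-only and 43 UMIs in Sun1_KO and 175 in Sun1_WT (-1.33). Among interferon genes, Gbp2 had 2 of 3 peaks and -0.03, and Ifit3 1 of 3 and -0.48. Of all 25185 placed genes, 6849 held a Sun1_KO-only peak. Macrophage genes held WT-only peaks in 5 of 18 and Sun1_KO-only peaks in 8. T and NK cell genes held WT-only peaks in 4 of 21 and Sun1_KO-only peaks in 17. AP-1 factors held WT-only peaks in 1 of 12 (Jun, 1 of 4 peaks, -0.28). Of the nuclear envelope genes, 5 of 17 did, and of these the nesprins Syne2 (3 of 25 peaks, 0.00) and Syne3 (2 of 21, 0.03), Lemd2 (0.26) and the lamin gene Lmnb1 (0.22) had ratios between 0.00 and 0.26. Keratins and epithelial genes did in 4 of 16, and Krt18 was the single one with enough RNA to compare. Across these lists, at least 2-fold lower were Tnc, Itga2, Ciita and Krt18.

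In macrophage-like nuclei, 375 genes with at least 100 UMIs held a WT-only peak leaning to those nuclei. In Sun1_KO, 6 of these (1.6%) were lower by 2-fold or more and 5 (1.33%) higher, where the share was 0.906% each way over 4966 genes. Of the 333 genes whose starts with a peak were all of the 435 called in Sun1_WT alone, 40 had at least 100 UMIs in tumour-cell-like nuclei. Of these, Krt18 was at least 2-fold lower, 7 (17.5%) were at least 2-fold higher and the median log2 ratio was 0.33, where 2.13% of all 11514 genes were lower and 3.08% higher. Tinagl1 had 2454 UMIs in Sun1_KO and 4974 in Sun1_WT, a ratio of -0.34 (-0.41 to -0.27). Start peaks with no Sun1_KO call thus went with a lower transcript at Krt18 alone at this threshold.

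Among the other starts shown or named above, Hmga2 had 101639 UMIs in Sun1_KO and 109870 in Sun1_WT (0.57), and Pogz a ratio of 0.69. Dennd5b had 658 and 421 UMIs (1.32). All 3 levels were thus higher in Sun1_KO, although a peak at the start had no Sun1_KO call.

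Chromatin called in both libraries could be compared directly around the WT-only peaks. Over 106080 shared regions in tumour-cell-like nuclei, 1.28% had a Sun1_KO level lower by 2-fold or more and 2.10% one higher by 2-fold or more, with a median log2 ratio of 0.02. Of the 19600 within 10 kb of a WT-only peak, 2.03% were lower and 1.64% higher, and the median was -0.00418, and within 1 kb 2.62% were lower and 2.72% higher. From 10 to 50 kb 1.29% were lower, and beyond 50 kb 0.953%, with 2.67% higher and a median of 0.05. Within 1 kb, regions past 2-fold were thus more frequent in both directions than over all shared regions, while the medians stayed near 0. Both libraries and the same nuclei entered the rule and these ratios.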

How the data were processed

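RNA and accessibility were measured in the same nuclei of 1 Sun1_KO and 1 Sun1_WT library. The deposited tables hold counts, UMIs per gene and nucleus and counts per peak and nucleus, made by the authors against mm10 with peaks listed per library. Tools in the submitters' processing notes are Seurat, Signac, Cell Ranger ARC, Cell Ranger and FastQC, with versions not given in the sources used. Some 75.0% of the values above 0 in the Sun1_KO and 75.5% in the Sun1_WT accessibility table are even, so counts are not independent events and intervals are too narrow. Sun1_KO totalled 183750142 counts in 134365 peaks of 2404 nuclei, and Sun1_WT 227006096 in 127147 peaks of 3455 nuclei. Median UMIs of kept nuclei were 12745 in Sun1_KO and 14268 in Sun1_WT.

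Nuclei were clustered on RNA with scanpy 1.11.5 (2000 variable genes, 30 components, 15 neighbours, Leiden resolution 1) and named from marker lists, with naming thresholds set after seeing the data. No doublet caller was run. Gene ratios added 0.5 to summed UMIs scaled by the total without mitochondrial genes. The edgeR package (4.0.16, R 4.3.3) gave only TMM factors, and the rest was done with Python 3.11.15, pandas 2.3.3 and scipy 1.17.1. The overlap step matched a direct search on simulated regions. Ratios and intervals were also run on simulated independent counts, which cannot show how wide intervals should be for these counts. Named were Sun1, the 10 WT-only peaks with most counts, the 5 leaning most each way, the 5 longest runs, 5 peaks on each side of the overlap rule, the 10 genes with most WT-only peaks, the 10 lowest and 10 highest by the interval bound nearest to no change, and up to 4 of each list. Of the lowest genes, 1 is not reported here. The members and lists were chosen with earlier results of these data known. No motif search over the peaks was made, because a genome sequence was not used here.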

Additional observations from a re-analysis of the deposited data

How the results depend on the processing

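No paired analysis was possible because each genotype has 1 library and no result comes from a test. An overlap of at least 0.5 of the peak, or a 500 bp margin, left 12910 and 11101 WT-only peaks, and a minimum of 500 counts left 1198. The tumour-leaning share was 41.1% on binarised counts, 28.3% at 3-fold, 41.0% from 100 counts, 43.6% in nuclei with 1500 UMIs and 48.7% at Leiden resolution 0.5, where no NK-cell-like class was found. The host-leaning share was then 16.7%, 14.6%, 18.4%, 18.7% and 16.7%, and 19.6% with the 500 bp margin. Chosen after seeing the data were the shallow myeloid cluster as host (41.3% tumour-leaning, 19.1% host-leaning) and the interval bound (12.5% and 13.4%). The share at starts was 7.79% within 2 kb and 3.77% with the 500 bp margin. For all autosomal Sun1_WT peaks, only the shares by the interval bound are given here (27.9% tumour-leaning, 17.6% host-leaning). The other shares under changed settings thus cannot be set against the 42.0%, 21.2% and 11.8% of the main setting.

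Genes with WT-only peaks were at least 2-fold lower in Sun1_KO in 3.24% under TMM, 3.24% under median-ratio factors, 4.10% from 1 UMI and 0.81% from 500 UMIs. All genes gave 4.64%, 4.54%, 5.17% and 1.54%, so the members' share, not matched for gene length, was the lower one under each of these. The median log2 ratio of shared regions near WT-only peaks was -0.0149 binarised, 0.00747 within 50 kb and -0.00977 with the 500 bp margin, so its sign follows the setting. Weak peaks and the small classes (58 T-cell-like, 106 NK-cell-like nuclei) limit the precision.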
